A study of Drosophila melanogaster with 24 samples.

Results

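The mitochondrially encoded genes of Drosophila melanogaster were taken as all gene symbols in the count tables that begin with mt:, which gave 38 of 17753 genes. They comprise 2 rRNAs, 13 mRNAs, 22 tRNAs and the control region mt:ori. Of the 38, 11 had enough counts to be tested (both rRNAs and 9 mRNAs), among 6147 genes tested in all. Sequenced RNA came from immunoprecipitates with anti-FLAG beads (RIP, from 80% of a lysate) and from the Input (the other 20%) of heads of adult females. The 3 genotypes were elav>Nab2-FLAG and elav>Atx2-3xFLAG, in which neuronal Gal4 drives a FLAG-tagged RNA-binding protein, and elav>Gal4 alone (Control), in which no FLAG transgene is named. The series asks which RNAs come down with the polyadenosine RNA-binding protein Nab2 and with the translational regulator Atx2. All flies thus carried the elav driver, all heads were fixed in formaldehyde before lysis, and each genotype had 4 lysates of 300 heads, so that 6 groups of 4 libraries were compared.

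The mitochondrial genome of animals is a small circle of DNA that encodes the rRNAs of the mitochondrial ribosome, a full set of tRNAs and a few hydrophobic subunits of the respiratory chain and ATP synthase. Both of its strands are transcribed into long precursors, from which the mRNAs and rRNAs are released largely by cutting out the tRNAs between them. These RNAs are made, translated and degraded inside the mitochondrion, whereas most subunits of the same complexes are encoded in the nucleus and translated in the cytosol.

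Libraries held 220894 to 2109561 counts, with Control RIP 3 and Nab2-FLAG RIP 3 the shallowest. Nab2 was higher in Nab2-FLAG than in Control, by a log2 difference of 2.08 in RIP and 2.25 in Input, and Atx2 in Atx2-3xFLAG differed from Control by 0.21 and 0.09, neither past the edgeR threshold (adjusted p = 0.129 and 0.674), so the Atx2 counts do not check that label. The defining markers of neurons (elav), photoreceptors (ninaE), glia (repo), fat body (Yp1) and muscle (Mhc) were counted in every library, as whole heads allow, so the lysates were not of neurons alone. Adjusted p-values come from edgeR's quasi-likelihood test over all 6147 genes with a threshold of 0.05. They rest on the spread between lysates of the same genotype, pooled over the 3 genotypes rather than taken from 1 genotype alone. For RIP against Input and for the associations, that spread is of the RIP-to-Input differences between lysates. In edgeR's robust fit the spread of a gene is also drawn toward that of all genes tested. Small p-values thus rest partly on other genes. Where groups are said not to overlap, this describes their values only. The share of all genes that do so is not given. The heads were collected in bulk, so separate fly cultures are not stated.

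The 37 members with an entry in the RefSeq table of assembly Release 6 plus ISO1 MT fill the sequence MT closely: of 36 neighbouring pairs, 18 touch or overlap, and the widest gap is 31 bp. The large-subunit rRNA, mt:lrRNA (FBgn0013686), lies at MT 12735 to 14058 (1324 bp) and the small-subunit rRNA, mt:srRNA (FBgn0013688), at 14131 to 14916 (786 bp). Of the cytochrome c oxidase (complex IV) subunits, mt:CoI (FBgn0013674) spans 1474 to 3009, mt:CoII (FBgn0013675) spans 3083 to 3767 and mt:CoIII (FBgn0013676) spans 4736 to 5524. The ATP synthase subunit mt:ATPase6 (FBgn0013672) spans 4062 to 4736 and shares 1 bp with mt:CoIII and 7 bp with mt:ATPase8. Cytochrome b of complex III, mt:Cyt-b (FBgn0013678), lies at 10499 to 11635. The complex I subunits mt:ND1, mt:ND3, mt:ND4 and mt:ND5 lie at 11721 to 12659, 5608 to 5961, 8207 to 9545 and 6409 to 8125. Whether the counting used strand is not stated, so reads from the opposite strand and reads that span neighbouring genes cannot be told apart from reads of the gene itself, and nuclear copies of mitochondrial sequence could share reads.

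Counts were spread very unevenly over the classes. The rRNAs held 89.1% and the mRNAs 10.9% of the 5336057 counts in members, although rRNA had been depleted before library preparation, so that rRNA levels are what depletion left. The 4 untested mRNAs had few or no counts, values that may depend on the annotation, the strand setting and how reads over adjacent genes were assigned, none of which is given in the sources used here. The complex I subunit mt:ND2 (1024 bp) had 0 to 20 counts per library, mt:ND4L at most 6, mt:ND6 at most 3, and the ATP synthase subunit mt:ATPase8 at most 1. By comparison mt:ND1, of similar length (939 bp), had 97 to 1077 counts per library.

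All 22 tRNAs together had 176 counts in 24 libraries, and 18 of them had at most 3 in any library. No count at all was found for 8 tRNAs and for mt:ori, which over the 23897491 counts of the series allows a level of up to 0.126 counts-per-million (CPM; a floor of 3 counts, counting error only). That floor bounds the counts and not the RNA in the heads. How far RNAs of 61 to 73 bp were recovered in the libraries was not tested. Only mt:tRNA:Met-CAT, mt:tRNA:Trp-TCA, mt:tRNA:Leu-TAA and mt:tRNA:Tyr-GTA passed 3 counts in a library. The tyrosine tRNA, mt:tRNA:Tyr-GTA, at MT 1403 to 1468 just before mt:CoI, had 0, 1, 0 and 1 counts in Nab2-FLAG RIP, 0, 0, 2 and 3 in Atx2-3xFLAG RIP, and 5, 8, 1 and 8 in Control RIP. In Input the counts were 0, 0, 2 and 0 in the Nab2-FLAG libraries, 2, 0, 1 and 0 in the Atx2-3xFLAG libraries, and 3, 5, 6 and 1 in the Control libraries. Summed over the RIP libraries this is 0.426 CPM, unscaled (95% exact Poisson interval 0.0516 to 1.54) in Nab2-FLAG, 0.913 (0.296 to 2.13) in Atx2-3xFLAG and 6.01 (3.77 to 9.10) in Control, intervals that cover counting error only. The gene did not pass the filter on low counts. Without that filter edgeR called it lower than Control in Nab2-FLAG RIP (adjusted p = 0.000498), Atx2-3xFLAG RIP (0.00182), Nab2-FLAG Input (0.0343) and Atx2-3xFLAG Input (0.0433). In the same fits 485 and 580 of 12033 genes were called lower in RIP, and 266 and 404 of 11283 in Input. The gene was named because it passed 3 counts in a library, which only Control libraries did. These calls therefore reuse the values that picked it and are no separate support.

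Compared per kilobase of annotated length, the mean levels fell into a similar order in the 6 groups. Levels are CPM after TMM scaling (trimmed mean of M-values), which sets libraries level over most genes, so that the CPM of an rRNA is above its raw share in Input. The rRNAs stood highest, mt:lrRNA having in Input 156905 ± 29586 CPM per kb for Nab2-FLAG, 160266 ± 23900 for Atx2-3xFLAG and 207373 ± 53061 for Control (SD, n = 4 each). Among the mRNAs, mt:CoIII came first in 5 groups, with Input means of 13754 ± 1179 for Nab2-FLAG, 14987 ± 2715 for Atx2-3xFLAG and 8951 ± 326 for Control. Control RIP was the exception, where mt:CoI had 5263 ± 296 and mt:CoIII 4637 ± 436, with overlapping libraries. There followed mt:CoI, mt:ATPase6, mt:Cyt-b and mt:CoII, the neighbours mt:CoI and mt:ATPase6 overlapping in 4 of the 6 groups. Among the tested mRNAs those of complex I were the lowest: in Control Input mt:ND4 had 441 ± 85, mt:ND1 273 ± 40, mt:ND5 178 ± 26 and mt:ND3 30.6 ± 9.6. By its mean mt:ND1 changed its place, standing above mt:ND4 in each RIP group and below it in each Input group.

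The rRNAs took a smaller share of the counts in RIP than in Input in every genotype. Together they held 13.08, 12.34, 14.15 and 16.25% of all counts in Nab2-FLAG RIP and 25.04, 25.81, 30.24 and 21.72% in Nab2-FLAG Input. The corresponding shares were 11.95, 12.77, 15.73 and 16.29% in Atx2-3xFLAG RIP and 28.15, 29.30, 23.34 and 29.40% in Atx2-3xFLAG Input, and 13.08, 12.99, 18.47 and 17.24% in Control RIP and 27.03, 29.91, 31.86 and 23.17% in Control Input. RIP and Input did not overlap in any genotype, and the RIP share was a median of 0.503 times the Input share over the 12 lysates (0.425 to 0.748). The mRNA share was also lower in RIP in 12 of 12 lysates, but less so, at a median of 0.847 times Input. The ratio of rRNA to mRNA counts was lower in RIP in 12 of 12 lysates, by a median factor of 0.577.

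**Figure D1:**
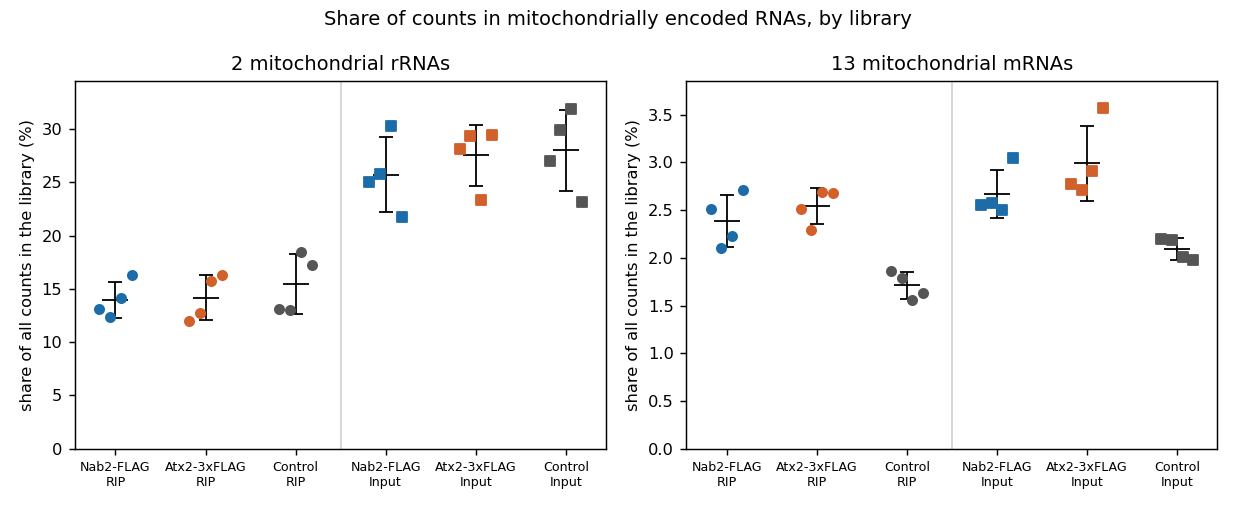
Share of all counts in the 2 mitochondrial rRNAs (left) and the 13 mitochondrial mRNAs (right) in each library, in percent. Points are libraries in order of their number, black marks are the group mean ± SD (n = 4), circles are RIP and squares Input; rRNA runs from 11.95% to 18.47% in RIP and from 21.7% to 31.9% in Input.

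The large-subunit rRNA, mt:lrRNA, had 80531, 79213, 97616 and 108290 CPM in Nab2-FLAG RIP and 200022, 206133, 259828 and 164986 in Nab2-FLAG Input. Scaled by TMM, it fell by 1.18 on the log2 scale in RIP (SE 0.21, edgeR adjusted p = 0.00731), with every RIP library below every Input library. In Atx2-3xFLAG it fell by 1.26 (SE 0.21, adjusted p = 0.00496) and in Control it fell by 1.21 (SE 0.21, adjusted p = 0.00670), again without overlap. The small-subunit rRNA, mt:srRNA, fell by 1.51, 1.55 and 1.51 in Nab2-FLAG, Atx2-3xFLAG and Control (adjusted p = 0.00889, 0.00723 and 0.00841). The ratio of mt:lrRNA to mt:srRNA counts was higher in RIP in 12 of 12 lysates, by a median factor of 1.22. Single lysates decided some of these calls at n = 3: mt:lrRNA in Nab2-FLAG missed the threshold without lysate 1 (log2 difference -1.12, adjusted p = 0.0512) or 2 (-1.11, 0.0542), and mt:srRNA without Nab2-FLAG 2 (-1.39, 0.0616), Atx2-3xFLAG 2 (-1.39, 0.0517), Control 1 (-1.45, 0.0505) or Control 2 (-1.37, 0.0632). RIP and Input libraries were pooled apart, and only immunoprecipitated RNA was concentrated before library preparation, so pool and handling cannot be told apart from the immunoprecipitation.

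Of the 11 tested members, 8 were called between RIP and Input in Nab2-FLAG (1 higher, 7 lower), where 7.82% of all tested genes were called, 3.42% higher and 4.41% lower. In Atx2-3xFLAG 8 were called, all lower, against 7.76% of all genes called (3.76% lower), and in Control 8, all lower, against 7.43% (4.42% lower). The median log2 difference of the 9 mRNAs was -0.49 in Nab2-FLAG, -0.56 in Atx2-3xFLAG and -0.71 in Control, beside -0.01, 0.00 and -0.01 over all genes. Under scaling by library size alone the median of all genes moved to 0.37, 0.37 and 0.39, and mt:CoI and mt:ND5 lost their calls in each genotype (log2 differences of -0.25 to -0.01), as did mt:Cyt-b in Nab2-FLAG (-0.10) and mt:CoII in Atx2-3xFLAG (-0.39).

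Among complex IV mRNAs, mt:CoI had log2 RIP-to-Input ratios of -0.28, -0.58, -0.55 and -0.19 in the 4 Nab2-FLAG lysates, -0.58, -0.52, -0.21 and -0.54 in Atx2-3xFLAG and -0.49, -0.60, -0.66 and -0.21 in Control. All 12 were below 0, and its fitted log2 differences were -0.40 (SE 0.07, edgeR adjusted p = 2.43e-05), -0.46 (SE 0.07, 1.15e-06) and -0.49 (SE 0.07, 1.93e-07). The third subunit, mt:CoIII, had ratios of -0.57, -0.89, -0.68 and -0.60 in the Nab2-FLAG lysates, -0.61, -0.85, -0.49 and -0.99 in the Atx2-3xFLAG lysates and -0.94, -1.07, -1.09 and -0.71 in the Control lysates. It was called in each genotype, at -0.69 (adjusted p = 5.28e-12), -0.73 (5.01e-13) and -0.95 (8.16e-18). The second subunit, mt:CoII, gave -0.36, -0.43, -0.26 and -0.95 in the Nab2-FLAG lysates, -0.22, -1.02, -0.72 and -1.10 in the Atx2-3xFLAG lysates and -0.96, -1.03, -0.90 and -1.49 in the Control lysates. It was called in Atx2-3xFLAG (-0.77, adjusted p = 0.0141) and Control (-1.11, 0.00294) but not in Nab2-FLAG (-0.51, 95% interval -0.87 to -0.15, adjusted p = 0.0961). Near the same value it was called in Nab2-FLAG by DESeq2 (-0.50, adjusted p = 0.0148), without the filter on low counts (-0.50, 8.58e-08) and without lysate coefficients (-0.52, 0.00322). The call in Atx2-3xFLAG was lost without lysate 2 (-0.70, 0.0541) or 4 (-0.66, 0.0572).

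The other mRNAs that were lower in RIP encode subunits of ATP synthase, complex III and complex I. For mt:ATPase6 the log2 difference was -0.72 in Nab2-FLAG, -0.73 in Atx2-3xFLAG and -0.96 in Control (adjusted p = 0.00429, 0.00340 and 0.000626). For mt:Cyt-b it was -0.49, -0.56 and -0.71 (adjusted p = 0.000190, 2.07e-05 and 5.24e-07). For mt:ND5 it was -0.42, -0.44 and -0.66 (adjusted p = 0.00924, 0.00390 and 0.000118), and that call was lost without Nab2-FLAG lysate 2 (-0.26, adjusted p = 0.232) or 3 (-0.41, 0.0643) and without Atx2-3xFLAG lysate 2 (-0.37, 0.0533). In edgeR without lysate coefficients mt:ND5 also lost its call in Nab2-FLAG (-0.39, adjusted p = 0.166) and Atx2-3xFLAG (-0.43, 0.119). Its RIP and Input libraries overlapped in both tagged genotypes. A further complex I mRNA, mt:ND4, had differences of -0.77, -0.71 and -0.87 that did not pass (adjusted p = 0.0853, 0.0961 and 0.0637). DESeq2 called mt:ND4 lower in all 3 genotypes (adjusted p = 0.00199, 0.00258 and 0.000631), as did edgeR without lysate coefficients (0.0296, 0.0306 and 0.00834).

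Against this direction, mt:ND1 was the member called higher in RIP. It encodes a membrane-arm subunit of complex I and is separated from mt:lrRNA on MT by the leucine tRNA mt:tRNA:Leu-TAG. Its log2 RIP-to-Input ratios were 0.74, 0.95, 1.06 and 0.35 in the Nab2-FLAG lysates, 1.04, 0.43, 0.35 and -0.02 in the Atx2-3xFLAG lysates and 0.17, 0.27, 0.61 and 0.30 in the Control lysates, above 0 in 11 of 12 lysates. The difference passed in Nab2-FLAG (0.76, SE 0.15, edgeR adjusted p = 0.00414) and not in Atx2-3xFLAG (0.44, 95% interval 0.14 to 0.73, adjusted p = 0.0767) or Control (0.32, -0.01 to 0.65, 0.262). Without a coefficient for each lysate the Nab2-FLAG call was lost (0.75, adjusted p = 0.146). Under library-size scaling mt:ND1 was also called in Atx2-3xFLAG (0.81, adjusted p = 0.00524) and Control (0.74, 0.0146), and without the filter on low counts in both (0.46, 3.35e-05, and 0.34, 0.0230). In Atx2-3xFLAG it was called as well without lysate 4 (0.61, adjusted p = 0.000307), and without the lysates of the 2 shallowest RIP libraries (0.42, 0.0448). The ratio of mt:ND1 to mt:lrRNA counts was higher in RIP in 12 of 12 lysates, by 1.79 to 6.16 times. The sparse mt:ND3, with 3.45 to 17.5 CPM over all libraries, had ratios on both sides of 0 in each genotype and was not called.

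**Figure D2:**
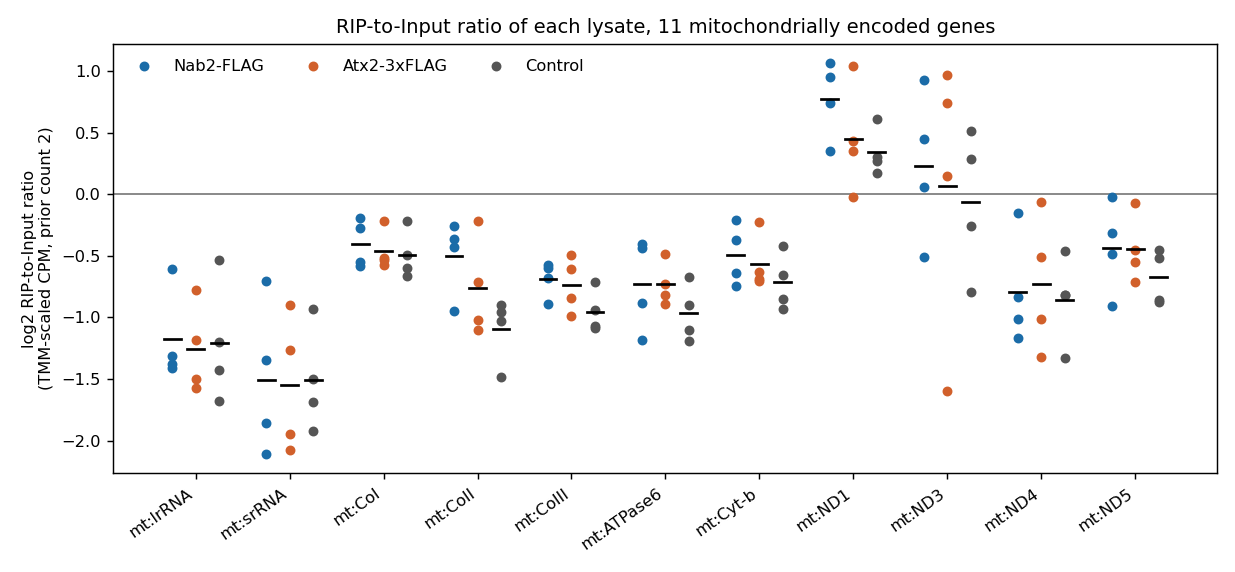
The log2 RIP-to-Input ratio of each lysate (TMM-scaled CPM, prior count 2) for the 11 tested members, by genotype. Points are lysates and black bars the mean of 4; both rRNAs and the mRNAs mt:CoI, mt:CoII, mt:CoIII, mt:ATPase6, mt:Cyt-b, mt:ND4 and mt:ND5 lie below 0 in all lysates, while 11 of 12 points of mt:ND1 lie above 0.

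The nuclear-encoded subunits of the same complexes had median log2 differences closer to 0, at -0.13 in Nab2-FLAG, -0.03 in Atx2-3xFLAG and -0.05 in Control. Of 70 listed genes 66 were tested, of which 1 was higher and 4 lower in RIP in Nab2-FLAG. In Atx2-3xFLAG 0 were higher and 4 lower, and in Control 3 were higher and 6 lower. The beta subunit of ATP synthase, ATPsynbeta, had a log2 difference of -0.28 in Nab2-FLAG, -0.32 in Atx2-3xFLAG and -0.30 in Control (adjusted p = 0.00743, 0.00170 and 0.00776). Of 7 tested genes of the list of mitochondrial DNA and RNA machinery, 0 were called by edgeR in any of the 3 genotypes, with 1, 0 and 0 at an unadjusted p under 0.05. Cell type markers moved between RIP and Input as well: in each genotype 5 of 5 photoreceptor and 3 of 5 fat body markers were lower. Of 5 neuron markers, 3 were higher in Nab2-FLAG, 3 in Atx2-3xFLAG and 1 in Control, as were 1 of 4 muscle markers in each genotype and 1 of 5 glia markers in Control. Over all 6147 genes, 210, 246 and 185 were called higher and 271, 231 and 272 lower in Nab2-FLAG, Atx2-3xFLAG and Control. The part of the cell type markers in the members' shift was not tested.

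Association with a tagged protein was measured as the RIP-to-Input difference in the tagged genotype minus that in Control. No member was called by edgeR for Nab2-FLAG or for Atx2-3xFLAG, where 0.0976% and 0.0488% of all genes were called, and none between the 2 proteins, where the share was 0%. At an unadjusted p under 0.05 there were 2 members for Nab2-FLAG (mt:CoII and mt:CoIII), 1 for Atx2-3xFLAG (mt:CoIII) and 0 between them, beside 7.16%, 5.53% and 3.64% of all genes. DESeq2 called 0 members in all 3. Without the filter on low counts edgeR called mt:CoII for Nab2-FLAG (0.59, adjusted p = 0.000409), where 18 of 12431 genes were called. In the main fit the difference for mt:CoII was 0.61 (95% interval 0.09 to 1.13, adjusted p = 0.616) for Nab2-FLAG and 0.35 (-0.17 to 0.86, 0.918) for Atx2-3xFLAG. For mt:CoIII it was 0.26 (0.07 to 0.46, adjusted p = 0.456) and 0.22 (0.02 to 0.41, 0.872). The rRNAs had differences near 0 but with wide intervals, 0.03 (-0.63 to 0.69) and -0.05 (-0.71 to 0.61) for mt:lrRNA. All 9 mRNAs had positive differences for each protein, with medians of 0.24 for Nab2-FLAG and 0.15 for Atx2-3xFLAG beside 0.01 and 0.02 over all genes, but both rest on the same 4 Control lysates.

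In the authors' deposited table of percent input, which holds the ratio of a tagged genotype to Control, all 11 tested members are listed. The authors' deposited table gives Nab2-FLAG ratios above 1 for 11 of 11 members and Atx2-3xFLAG ratios above 1 for 9 of 11. Of the 5760 genes in the authors' deposited table, 50.6% and 50.3% lie above 1. Its ratios come from the same series and the same Control as the associations above, so they are no separate support. Because all members share that Control, the number above 1 does not count independent results. For Nab2-FLAG, both rRNAs lie only slightly above 1 in the authors' deposited table. Among these 11 members the largest Nab2-FLAG ratio in the authors' deposited table is that of mt:CoII, 1.52 (Dunnett p = 0.0530), whose Atx2-3xFLAG ratio is 1.27 (Dunnett p = 0.347). In the authors' deposited table none of the 11 members has a Dunnett p-value under 0.05.

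Among the tested members, the largest difference from Control was in mt:CoIII, which was higher in both tagged genotypes than in Control, in Input as well as in RIP. In Input it had 10142, 10382, 10677 and 12208 CPM for Nab2-FLAG, 10439, 11097, 10750.3 and 15013 CPM for Atx2-3xFLAG and 6881, 7162, 7378 and 6827 CPM for Control. Every tagged library was above every Control library, with a log2 difference of 0.62 in Nab2-FLAG (SE 0.11, 1.54-fold, edgeR adjusted p = 5.73e-05) and 0.74 in Atx2-3xFLAG (SE 0.11, 1.67-fold, adjusted p = 1.32e-06). In RIP it had 6815, 5596, 6643 and 8070.4 CPM for Nab2-FLAG, 6861, 6170.1, 7634 and 7557 CPM for Atx2-3xFLAG and 3579, 3417, 3473 and 4165 CPM for Control. The groups again did not overlap, with differences of 0.89 (SE 0.11, 1.85-fold, adjusted p = 1.19e-07) and 0.95 (SE 0.11, 1.93-fold, adjusted p = 1.73e-08). The 2 tagged genotypes share the Control libraries in these comparisons. In whole heads, fewer cells of a type and less RNA per cell cannot be told apart.

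**Figure D3:**
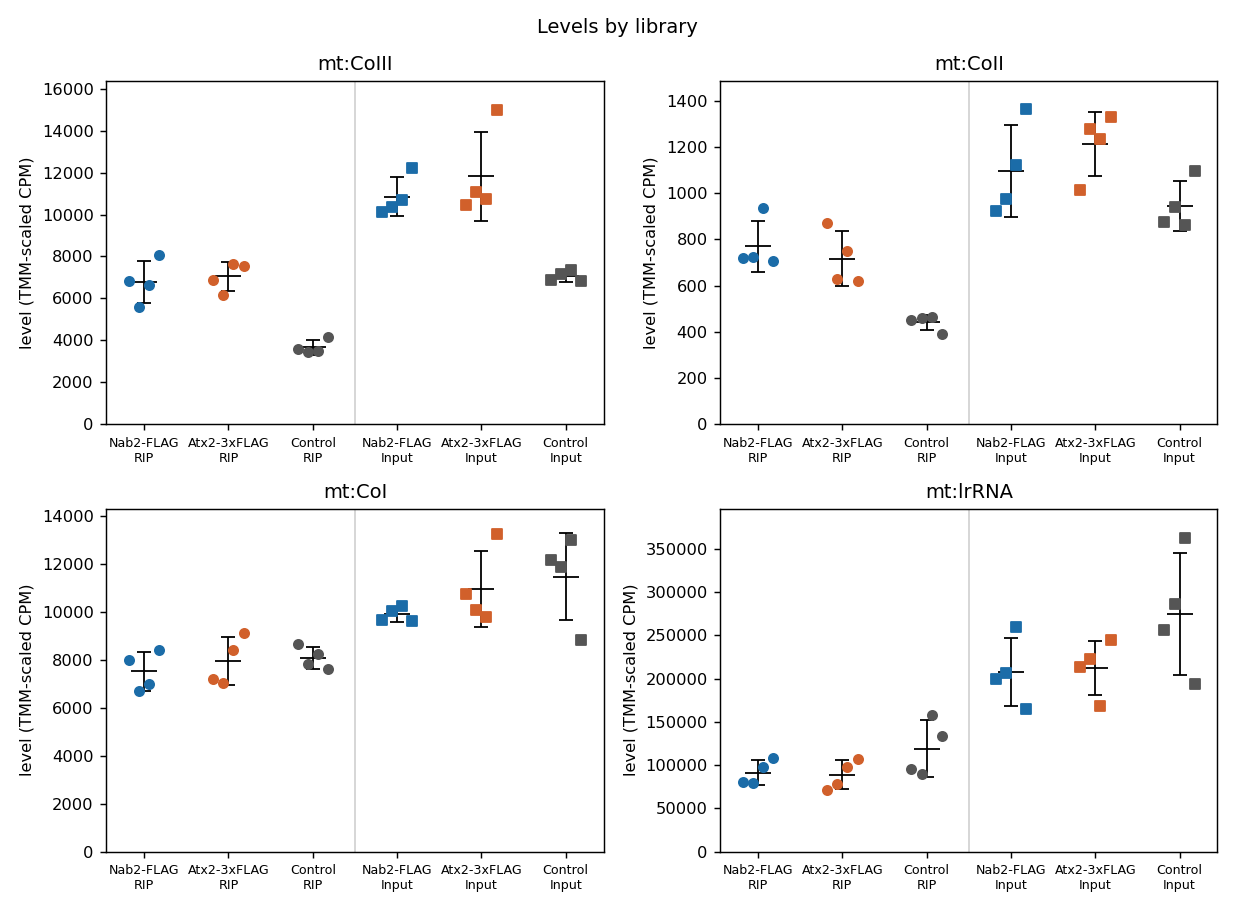
Levels (TMM-scaled CPM) of mt:CoIII, mt:CoII, mt:CoI and mt:lrRNA in every library of the 6 groups. Points are libraries in order of their number, black marks the group mean ± SD (n = 4), circles RIP and squares Input; mt:CoIII lies between 3417 and 4165 CPM in Control RIP and between 5596 and 8070 CPM in the tagged RIP libraries.

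The second complex IV subunit, mt:CoII, was higher than Control in RIP in both tagged genotypes. There it had 718, 722, 937 and 706 CPM for Nab2-FLAG, 871, 628, 752 and 618 CPM for Atx2-3xFLAG and 449, 459, 462 and 390.5 CPM for Control, with no overlap. The log2 difference was 0.80 in Nab2-FLAG (SE 0.11, edgeR adjusted p = 1.22e-06) and 0.71 in Atx2-3xFLAG (SE 0.11, adjusted p = 5.06e-06). In Input it had 923, 973, 1124 and 1367 CPM for Nab2-FLAG, 1013, 1278, 1235 and 1329 CPM for Atx2-3xFLAG and 874, 940.3, 862 and 1098 CPM for Control, and both tagged groups overlapped Control. In Input it was called in Atx2-3xFLAG (0.36, SE 0.11, adjusted p = 0.0217) and not in Nab2-FLAG (0.21, 95% interval -0.02 to 0.44, adjusted p = 0.271). The Atx2-3xFLAG Input call was lost without Atx2-3xFLAG 2 (0.33), 3 (0.35) or 4 (0.32) and without Control 1 (0.33), 2 (0.36) or 3 (0.31), with adjusted p between 0.0572 and 0.0912.

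Over the 11 tested members, 1 was called higher in Nab2-FLAG Input, where 7.35% of all genes were called higher, and 2 in Atx2-3xFLAG Input (8.95%). In RIP 4 were called higher in each tagged genotype, where 11.1% of all genes were called higher in Nab2-FLAG and 13.5% in Atx2-3xFLAG. No member was called lower in these 4 comparisons, beside 4.80% and 7.58% of all genes in Input and 8.57% and 10.3% in RIP (Nab2-FLAG, then Atx2-3xFLAG). The other 2 called in RIP were mt:Cyt-b (0.45 in Nab2-FLAG, adjusted p = 0.00541, and 0.39 in Atx2-3xFLAG, 0.0142) and mt:ATPase6 (0.37, 0.0328, and 0.34, 0.0408), both with libraries overlapping Control.

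Those 2 calls depended on single libraries. For mt:ATPase6 the Nab2-FLAG call was lost without Nab2-FLAG 1 (log2 difference 0.29) or 4 (0.24) and without Control 2 (0.36), 3 (0.36) or 4 (0.31), and the Atx2-3xFLAG call without Atx2-3xFLAG 3 (0.25) or 4 (0.27) and without Control 2 (0.32), 3 (0.32) or 4 (0.28). DESeq2 did not call it either (adjusted p = 0.0699 for Nab2-FLAG and 0.0992 for Atx2-3xFLAG). For mt:Cyt-b the Nab2-FLAG call was lost without Nab2-FLAG 4 (0.31), and the Atx2-3xFLAG call without Atx2-3xFLAG 3 (0.31), Control 2 (0.34) or Control 3 (0.34).

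The remaining mRNAs did not pass. The level of mt:CoI, the catalytic subunit of complex IV, differed from Control by -0.10 (95% interval -0.32 to 0.12) in Nab2-FLAG RIP and -0.02 (-0.24 to 0.20) in Atx2-3xFLAG RIP, and by -0.21 (-0.44 to 0.02) and -0.07 (-0.30 to 0.16) in Input. In Nab2-FLAG Input mt:CoI was called lower in 1 of 14 alternatives, without Control 4 (-0.32, edgeR adjusted p = 0.0338). For the complex I mRNAs mt:ND1, mt:ND4 and mt:ND5 the RIP differences were 0.46, 0.34 and 0.34 in Nab2-FLAG and 0.45, 0.41 and 0.42 in Atx2-3xFLAG, with adjusted p from 0.122 to 0.270. Library-size scaling, which moved the median of all genes by 0.13 and 0.18 in RIP and by 0.16 and 0.24 in Input, brought these 3 past the threshold in RIP in both genotypes, as did leaving out the filter on low counts. The sparse mt:ND3 had intervals from -1.19 to 0.84 over the 4 comparisons.

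The rRNAs had negative differences that did not pass in the fits without a block. The log2 difference of mt:lrRNA from Control was -0.38 in Nab2-FLAG RIP and -0.42 in Atx2-3xFLAG RIP (edgeR adjusted p = 0.113 and 0.0698), and -0.40 and -0.37 in Input (0.0968 and 0.108). All 4 comparisons had overlapping libraries. It was called in Input without Control 4, at -0.54 in Nab2-FLAG (adjusted p = 0.00376) and -0.51 in Atx2-3xFLAG (0.00485), and in Nab2-FLAG also without Nab2-FLAG 3 (-0.53, 0.0269). In RIP it was called without Control 2, at -0.51 in Nab2-FLAG (0.0333) and -0.56 in Atx2-3xFLAG (0.0162), the Atx2-3xFLAG difference also without Control 1 (-0.52, 0.0312). With the replicate number as a block mt:lrRNA was called lower in 3 of the 4 comparisons, Nab2-FLAG RIP (-0.36, 0.0103), Atx2-3xFLAG RIP (-0.40, 0.00294) and Nab2-FLAG Input (-0.39, 0.0273), although the numbers do not pair the genotypes by the labels. For mt:srRNA the 4 differences lay between -0.10 and -0.05.

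**Figure D4:**
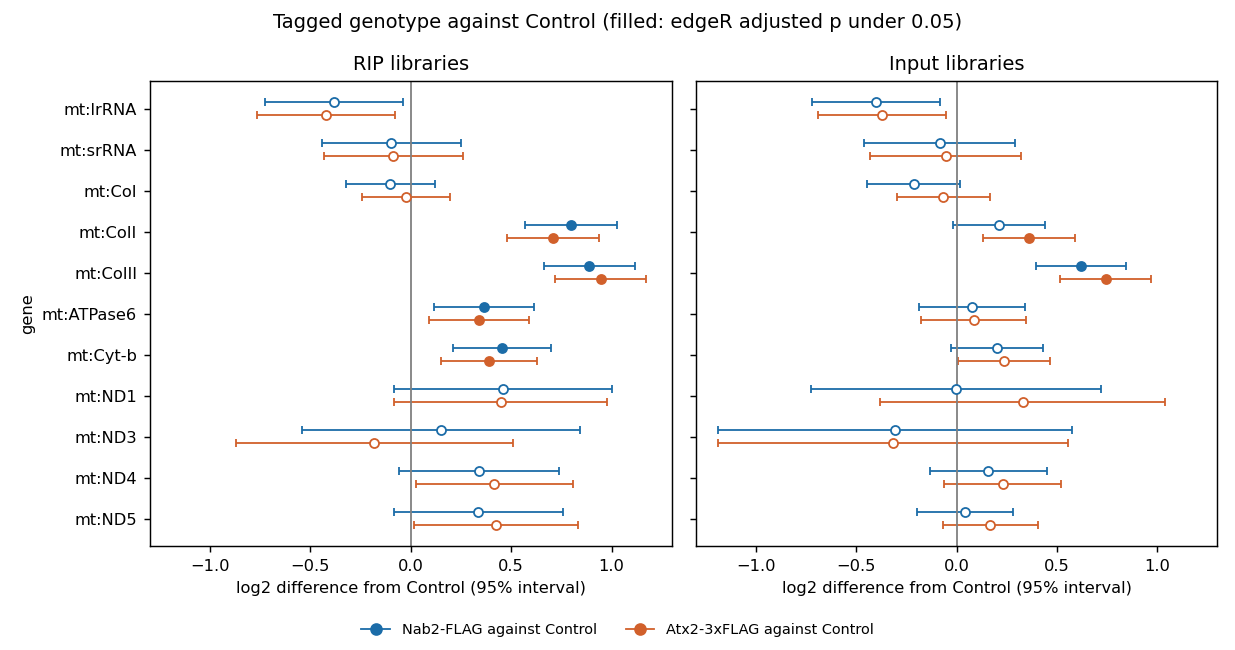
Log2 difference of each tagged genotype from Control with its 95% interval, for the 11 tested members in RIP (left) and Input (right). Blue is Nab2-FLAG, orange Atx2-3xFLAG, and filled points have an edgeR adjusted p under 0.05; mt:CoIII is filled in all 4 comparisons, at 0.62 to 0.95.

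The ratio of mt:CoIII to mt:CoI counts, which does not depend on scaling between libraries, was looked at after these values were seen and is given without a test. It was 0.854, 0.837, 0.947 and 0.959 in the Nab2-FLAG RIP libraries, 0.952, 0.875, 0.907 and 0.828 in the Atx2-3xFLAG RIP libraries and 0.414, 0.436, 0.422 and 0.546 in the Control RIP libraries. In Input it was 1.05, 1.04, 1.04 and 1.27 in the Nab2-FLAG Input libraries, 0.972, 1.10, 1.10 and 1.13 in the Atx2-3xFLAG Input libraries and 0.566, 0.603, 0.567 and 0.772 in the Control Input libraries. Tagged and Control libraries did not overlap in either pool, and within a lysate the ratio was lower in RIP than in Input in 12 of 12. Expressed as shares of all mitochondrial mRNA counts, mt:CoI made up 36.6 ± 1.5% in Nab2-FLAG RIP, 37.5 ± 1.3% in Atx2-3xFLAG RIP and 49.2 ± 1.1% in Control RIP (SD, n = 4 each). The share of mt:CoIII was 32.8 ± 1.1%, 33.4 ± 0.9% and 22.3 ± 2.5% in the same groups.

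**Figure D5:**
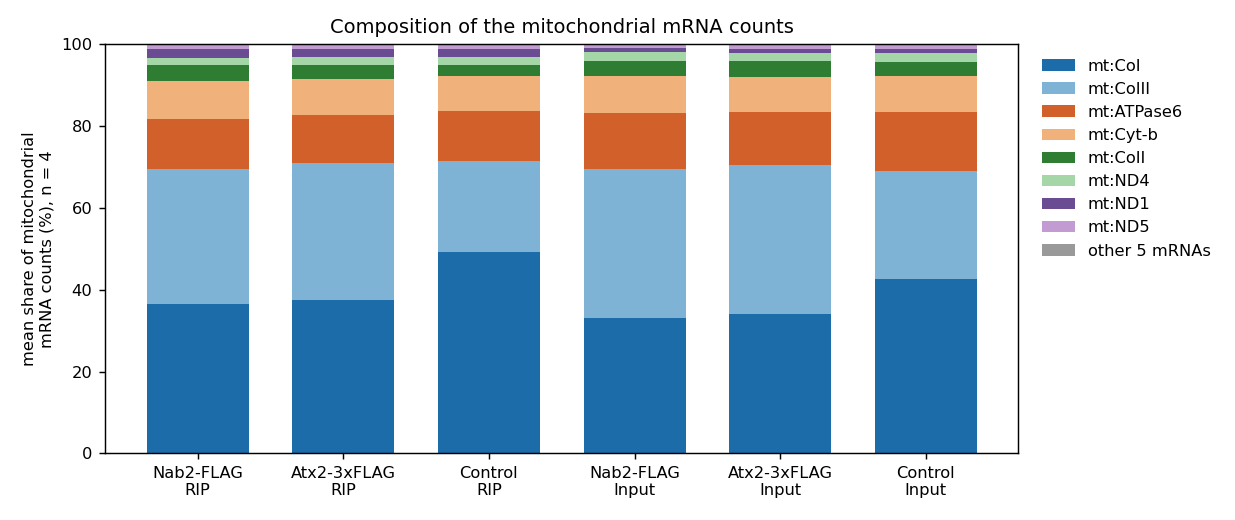
Mean share of each mRNA in all mitochondrial mRNA counts of a group (n = 4), in percent, stacked to 100%. The dark blue mt:CoI segment is 33.1% to 37.5% in the tagged groups, and 49.2% in Control RIP and 42.5% in Control Input.

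Of the 66 tested nuclear subunits of the same complexes, Nab2-FLAG Input had 13 higher and 0 lower, beside 7.35% and 4.80% of all genes, and Nab2-FLAG RIP had 12 higher and 3 lower, beside 11.1% and 8.57%. In Atx2-3xFLAG 4 were higher and 2 lower in Input, and 7 higher and 6 lower in RIP. The higher calls there were a smaller share of the 66 than the 8.95% and 13.5% of all genes called higher. In Nab2-FLAG Input the ATP synthase list had 8 of 13 higher and a median log2 difference of 0.46 beside -0.02 over all genes. Its beta subunit, ATPsynbeta, differed by 0.60 (edgeR adjusted p = 5.28e-05) and its membrane ring subunit, ATPsynC, by 0.46 (0.000644). In Atx2-3xFLAG Input 2 of 13 were higher, with a median of 0.18. The electron carrier cytochrome c, Cyt-c-p, differed from Control by 0.99 in Nab2-FLAG RIP (adjusted p = 3.24e-07) and 1.17 in Atx2-3xFLAG RIP (3.89e-09). Of the nuclear complex IV subunits, COX4 was higher in Nab2-FLAG Input (0.58, adjusted p = 0.000768), where 2 of 9 were called, against 0 of 9 in Atx2-3xFLAG Input.

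Cell type markers moved with the genotype as well. Of all genes, 7.35% and 8.95% were called higher and 4.80% and 7.58% lower in Input (Nab2-FLAG, then Atx2-3xFLAG). In RIP 11.1% and 13.5% were higher and 8.57% and 10.3% lower. Muscle markers summed to 3605 to 4607 CPM in Nab2-FLAG Input, 3463 to 3627 CPM in Atx2-3xFLAG Input and 1689 to 2421 CPM in Control Input, and 3 of 4 tested were called higher in each tagged genotype. Photoreceptor markers summed to 47706 to 60118 CPM in Nab2-FLAG Input, 48458 to 59079 CPM in Atx2-3xFLAG Input and 71582 to 104161 CPM in Control Input, with 3 of 5 lower in each and 1 of 5 higher in Atx2-3xFLAG. In RIP 4 of 4 muscle markers were higher in Nab2-FLAG and 3 of 4 in Atx2-3xFLAG, while 4 of 5 photoreceptor markers were lower in Nab2-FLAG, and 3 of 5 were lower and 1 higher in Atx2-3xFLAG. Fat body markers differed between the tagged genotypes, at 98410 to 121186 CPM in Nab2-FLAG Input, 70207 to 77219 CPM in Atx2-3xFLAG Input and 105911 to 142906 CPM in Control Input. Among 5 fat body markers, Nab2-FLAG Input had 2 higher than Control and 0 lower, and Atx2-3xFLAG Input 1 higher and 2 lower. The RIP libraries of Nab2-FLAG had 2 higher and 1 lower, and those of Atx2-3xFLAG 1 higher and 3 lower. Neuron markers called in Nab2-FLAG were 1 lower in Input, and 1 higher and 1 lower in RIP, while in Atx2-3xFLAG 3 of 5 were higher in each pool. Of 5 glia markers 2 were higher in Nab2-FLAG in each pool and 0 in Atx2-3xFLAG, with 1 lower in RIP of each. Their part in the members' differences from Control was not tested.

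Between Nab2-FLAG and Atx2-3xFLAG 0 of the 11 tested members were called, in RIP or in Input, where 4.28% of all genes were called in each pool. By edgeR 0 members passed at an unadjusted p under 0.05 in either pool, beside 15.5% of all genes in RIP and 15.7% in Input, and DESeq2 called 0 in both. The difference in mt:CoIII, Nab2-FLAG minus Atx2-3xFLAG, was -0.06 (95% interval -0.28 to 0.17) in RIP and -0.12 (-0.35 to 0.10) in Input. For mt:CoII it was 0.09 (-0.13 to 0.31) and -0.15 (-0.38 to 0.08). For mt:lrRNA the intervals, -0.31 to 0.38 and -0.35 to 0.29, do not show equal levels.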

How the data were processed

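Gene counts came from 24 libraries of heads of adult females, 12 RIP and 12 Input, from 12 lysates. Each deposited table holds raw read counts per gene for 1 library, with no normalization. Per the submitters' processing notes, reads were handled with STAR 2.6.0b-1, featureCounts 1.6.3 and DESeq2 2.11.40.2 on build BDGP6. The annotation, the strand setting and the treatment of reads over neighbouring genes are not given in the sources used here. The authors' deposited table of percent input gives, per its column headers, a ratio of each tagged genotype to Control and the p-values of Dunnett's comparison. Its further 24 per-sample columns and the authors' normalized counts were not used.

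The main test was edgeR 4.0.16's glmQLFTest after a robust glmQLFit (two-sided, quasi-likelihood, limma 3.58.1) in R 4.3.3, with TMM scaling over all 24 libraries and filterByExpr on the 6 groups, which kept 6147 of 17753 genes with 98.9% of the counts. P-values were adjusted by the Benjamini-Hochberg method over all genes tested, with a threshold of 0.05. RIP-to-Input differences and associations were fitted with 1 coefficient per lysate. Per the labels the RIP and Input libraries of a number share a lysate, and their deviations from the group means correlated with a median r of 0.183, over 0.1 in 10 of 12 lysates. Genotypes were compared within the 12 RIP and the 12 Input libraries without a block. The biological coefficient of variation was 0.0942, 0.106 and 0.123 in the paired, RIP and Input fits. Log2 ratios of single lysates used a prior count of 2. Coordinates and lengths come from the RefSeq table of Release 6 plus ISO1 MT and may differ from the authors' annotation, and 37 of 38 members matched it.

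Every mt: rRNA and mRNA is named, tRNAs only where tested or over 3 counts (those 4 were chosen after their values were seen), and up to 3 genes per nuclear list by smallest adjusted p. Members and lists were chosen with earlier results of these data known. Alternatives were scaling by library size, scaling on nuclear genes, DESeq2 1.42.0, no filter, fits with and without a replicate block and leaving out each lysate or library. Leaving out the lysates of the 2 shallowest RIP libraries was added after seeing the data. Among the 36 pairs of replicates, the chi-square per degree of freedom was 1.39 to 6.54, above 1 and so above counting error in every pair. That value cannot tell separate flies from separate preparations of the same material. Each library was counted as its own replicate by its label. Depth ran from 220894 to 2109561 counts per library, so 3 counts correspond to 13.6 CPM in the shallowest and 1.42 in the deepest. The procedure was tested on counts simulated without lysate effects. At simulated log2 differences of 1 and -1 the association test called 58% and 52% of 50 genes each. The Input comparison called 86% and 64%. Of unchanged genes, 0.202% and 0.185% were called. Changed genes were drawn from all genes tested, so an association of that size could be missed for some genes. These shares do not carry over to members of high level. The 95% interval of the Nab2-FLAG association was -0.10 to 0.28 for mt:CoI and 0.07 to 0.46 for mt:CoIII, but -0.80 to 1.48 for the sparse mt:ND3.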

Additional observations from a re-analysis of the deposited data

Results flagged for a closer look

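In 10 of 141 groups of 4 values (each member's level or RIP-to-Input ratio, and shares of counts), 1 library or lysate stood apart from the other 3 by more than Dixon's 95% criterion allows. Chance alone gives about 1 in 20, or 7.05 of 141. The causes were not tested.

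Library 4 of Nab2-FLAG Input had 3.04% of its counts in mitochondrial mRNAs, against 2.50% to 2.57% in the other 3, and a mt:CoIII to mt:CoI ratio of 1.27, against 1.04 to 1.05. It is also the shallowest Input library, with 511415 counts. In Atx2-3xFLAG Input 4, mt:CoIII reached 15013 CPM, against 10439 to 11097 CPM in the others.

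Among RIP libraries, mt:CoII had 937 CPM in Nab2-FLAG RIP 3, against 706 to 722 CPM. In Control RIP 1 mt:Cyt-b had 1632 CPM, against 1324 to 1341 CPM. Control RIP 3, the shallowest library, had 4.82 CPM of mt:ND3, against 11.7 to 12.9 CPM, and 467 CPM of mt:ND1, against 270.0 to 299 CPM.

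Of the log2 RIP-to-Input ratios, 3 stood apart, each closest to 0 in its genotype. Atx2-3xFLAG lysate 3 had -0.21 for mt:CoI, against -0.58 to -0.52, and -0.23 for mt:Cyt-b, against -0.71 to -0.63. Nab2-FLAG lysate 4 had -0.61 for mt:lrRNA, against -1.41 to -1.31.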

How the results depend on the processing

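No called value of a member changed its sign under any alternative run. Of 792 values of single genes outside the leave-one-out fits, 729 kept their side of the threshold, 20 lost and 43 gained a call, and of 924 leave-one-out values 882 kept it, 31 lost and 11 gained one. The higher calls of mt:CoIII in both tagged genotypes were kept in Input and in RIP in all of these fits.

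Counts of members called moved as follows. Scaling by library size alone gave, in Input, 3 for Nab2-FLAG (1 with TMM) and 6 for Atx2-3xFLAG (2 with TMM), and 7 in RIP of each tagged genotype, against 4. Higher calls among all 6147 genes rose as well, from 452 to 663 in Nab2-FLAG Input and from 550 to 1043 in Atx2-3xFLAG Input. In Nab2-FLAG RIP they rose from 684 to 979 and in Atx2-3xFLAG RIP from 831 to 1338. Lower calls fell in each of these comparisons. Without a filter there were 2 in Nab2-FLAG Input (1 higher, 1 lower), 3 in Atx2-3xFLAG Input (2 higher, 1 lower), 8 in Nab2-FLAG RIP (7 higher, 1 lower) and 9 in Atx2-3xFLAG RIP (7 higher, 2 lower), with mt:tRNA:Tyr-GTA lower in each and mt:lrRNA lower in Atx2-3xFLAG RIP. It also gave 9 between RIP and Input in each genotype, and 1 for the Nab2-FLAG association (mt:CoII, log2 difference 0.59). Of all genes this setting called 762 and 1002 of 11283 in Input and 1213 and 1489 of 12033 in RIP (Nab2-FLAG, then Atx2-3xFLAG). Between RIP and Input it called 429, 425 and 390 of 12431 in Nab2-FLAG, Atx2-3xFLAG and Control, and 18 for the Nab2-FLAG association. Without the lysates of the 2 shallowest RIP libraries, an alternative chosen after seeing the data, there were 5 between RIP and Input in Nab2-FLAG, 1 in Atx2-3xFLAG Input and 2 in Atx2-3xFLAG RIP. Of 6463 genes tested, 333, 805 and 1456 were called in the same comparisons. In Nab2-FLAG mt:lrRNA (-1.09, adjusted p = 0.0720), mt:srRNA (-1.29, 0.0774) and mt:ND5 (-0.40, 0.124) were then no longer called between RIP and Input.

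Leaving out each lysate or library in turn gave 5 to 8 members called between RIP and Input in Nab2-FLAG, 5 to 8 in Atx2-3xFLAG and 7 to 8 in Control. It gave 1 to 3 in Nab2-FLAG Input, 1 to 3 in Atx2-3xFLAG Input, 2 to 5 in Nab2-FLAG RIP and 2 to 5 in Atx2-3xFLAG RIP, with 0 to 0 for the associations and for Nab2-FLAG against Atx2-3xFLAG. Of the 6269 to 6382 genes tested, 218 to 426, 234 to 408 and 232 to 457 were called between RIP and Input in Nab2-FLAG, Atx2-3xFLAG and Control. In Input 555 to 812 were called in Nab2-FLAG and 744 to 1123 in Atx2-3xFLAG. In RIP 852 to 1221 and 1141 to 1452 were called. The associations had 2 to 9 and 1 to 4.

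With the replicate number as a replicate block, 2 members were called in Nab2-FLAG Input (1 higher, and mt:lrRNA lower at -0.39), 6 in Nab2-FLAG RIP (5 higher, mt:ND1 being added, and mt:lrRNA lower at -0.36) and 8 in Atx2-3xFLAG RIP (7 higher, and mt:lrRNA lower at -0.40). Of all 6147 genes, 506, 674 and 800 were higher and 369, 530 and 605 lower in these comparisons. The numbers do not pair genotypes by the labels: same-numbered libraries correlated by over 0.1 in 7 of 12 pairs in Input (median 0.122) and 4 of 12 in RIP (median 0.0644), and 7 and 8 of 12 correlated best with their own number.

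Depth limits the sparse members: with 3 counts at 13.6 CPM in the shallowest library, mt:ND3, the 4 untested mRNAs and the tRNAs are near or under what a library can show. For those 4 mRNAs and the tRNAs, the part of the annotation, the strand setting and the library preparation was not tested. TMM scaling assumes that most genes do not shift between RIP and Input, which these counts alone cannot check.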
